A study of Mus musculus with 4 samples.

Results

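IGF2BP3 eCLIP-seq signal was examined along the transcripts of 10 genes of histone lysine methyltransferases and their relatives: Dot1l, Setd1a, Setd1b, Setd2, Kmt2a, Kmt2b, Kmt2c, Kmt2d, Kmt2e and Nsd1. The genes were chosen for the enzyme family they encode, and a cluster was given to a gene when its centre lay inside the gene span on the same strand (GENCODE M21, mm10). These 10 genes were among 18026 that held at least 1 cluster in either replicate. They held 708 of the 337234 clusters of replicate 1 and 557 of the 216354 clusters of replicate 2.

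The RNA came from UV-crosslinked testes of wild-type C57BL/6 mice, 8 weeks of age, with germ cells and somatic cells together and no other treatment. The IP group had 2 libraries made with an IGF2BP3 antibody, and the SMInput group had 2 libraries of the same kind of lysate and fragment size made without antibody, which serve as background. Replicate 1 had 5133438 usable IP reads and 8706391 usable SMInput reads, and replicate 2 had 4637612 and 16696122. The study calls the replicates biological, but the sample labels do not say which animals each came from, so spread between them may be technical and each P value speaks only for the reads of its pair of libraries. In bulk tissue, fewer cells of a type and less RNA per cell cannot be told apart.

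Histone lysine methyltransferases add methyl groups to lysines of histone tails or of the nucleosome core. DOT1L methylates a lysine in the globular core of histone H3, a mark that rises in elongating spermatids shortly before histones give way to protamines. The SETD1 and KMT2 enzymes work in COMPASS complexes on promoters and enhancers, SETD2 and NSD1 act on transcribed or intergenic chromatin, and KMT2E keeps the SET fold but is known as a chromatin reader with little or no enzyme activity. IGF2BP3 is an RNA-binding protein that reads mRNAs, many of them with m6A, and contacts them mainly in exons near the stop codon.

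Markers of the tissue were present in the clusters. All 18 marker genes checked, for spermatids, spermatocytes, other germ cells, Sertoli cells and Leydig cells, held clusters in both replicates. The protamine gene Prm1 reached 358 SMInput reads in a cluster in replicate 1 and 639 in replicate 2. The Leydig cell gene Insl3 reached 319 and 521, so somatic RNA was in the same libraries.

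A cluster counted as a significant peak when both the log2(fold change) of IP over SMInput and the −log10(P value) were at least 2. By this rule 4.92% of all clusters passed in replicate 1 and 13.2% in replicate 2. Of the clusters on the 10 genes, 43 of 708 (6.07%) and 68 of 557 (12.2%) passed, so as a group the genes lay close to the background. Their median log2(fold change) was 1.12 and 1.11, below the 1.5 and 1.53 of all clusters.

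The group hid a wide spread among its genes. Kmt2e had 17 significant peaks of 107 clusters in replicate 1 (15.9%) and 28 of 75 in replicate 2 (37.3%). Dot1l had 9 of 65 (13.8%) and 7 of 55 (12.7%). With touching peaks joined, Kmt2e had 15 and 23 stretches and Dot1l 5 in both. Nsd1 had 7 of 76 (9.21%) and 11 of 62 (17.7%). The remaining genes had between 0 and 5 significant peaks each in either replicate. Dot1l and Kmt2e, set apart after their values were seen, gave 26 of 172 clusters (15.1%) and 35 of 130 (26.9%), and the other 8 genes gave 17 of 536 (3.17%) and 33 of 427 (7.73%). In replicate 2 the pooled share came mostly from Kmt2e, with 28 of the 35 peaks. Dot1l alone, at 12.7%, lay close to the 13.2% of all clusters and below Nsd1. Among 12292 protein-coding genes with clusters in both replicates, Kmt2e ranked 33 and 12 by its number of significant peaks. Dot1l ranked 232 and 822, and Nsd1 373 and 302. The number of peaks also rises with transcript length and abundance.

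**Figure D1:**
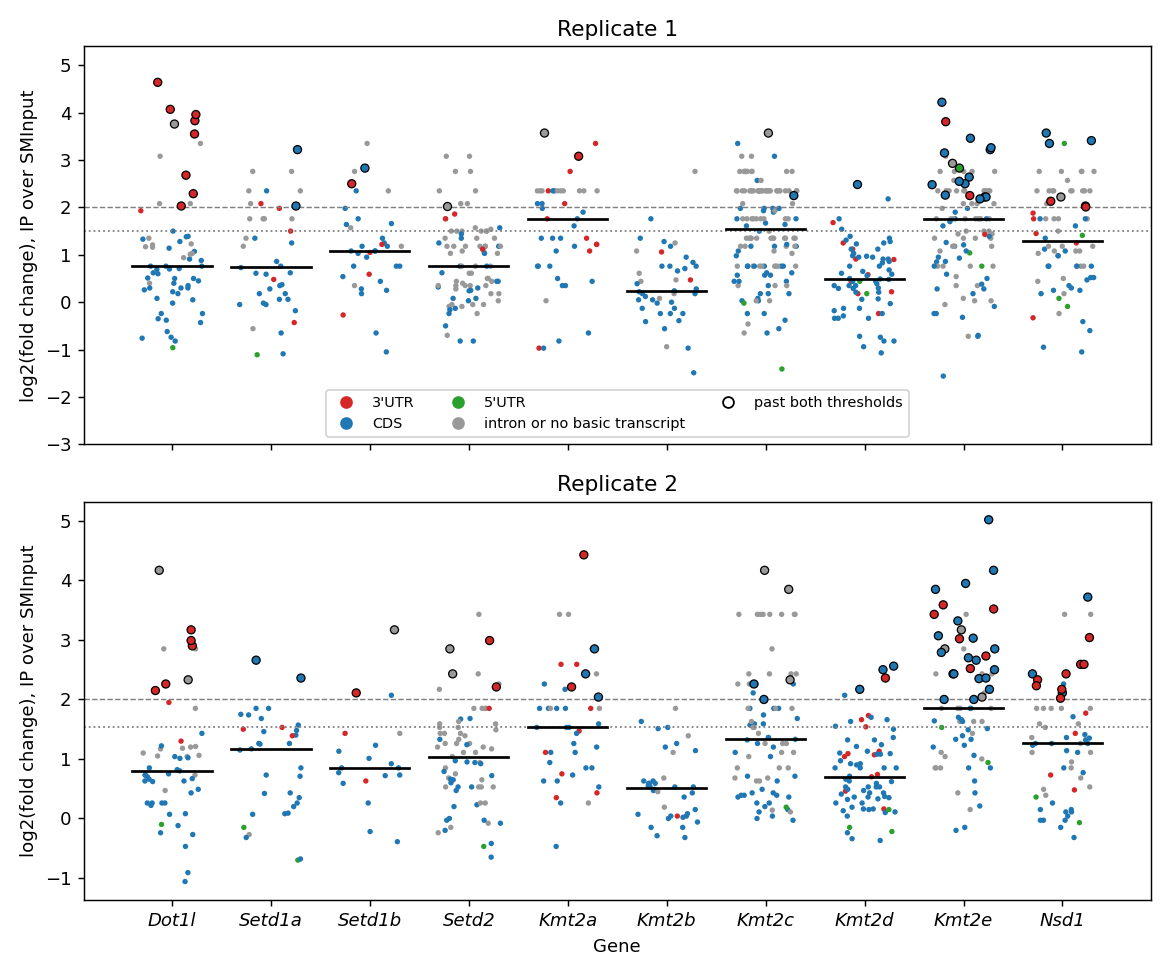
Every cluster on the 10 genes, with the log2(fold change) of IP over SMInput on the vertical axis and the gene on the horizontal axis, 1 panel a replicate. Colours give the gene region, ringed points are significant peaks, black bars are medians of a gene, the dashed line is the threshold of 2 and the dotted line the median of all clusters; Dot1l and Kmt2e reach 4.64 and 4.22 in replicate 1, whereas no point of Kmt2b is ringed.

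Sites were defined as significant peaks of both replicates that shared at least 1 base, with touching peaks joined. Because sites were picked for passing thresholds, their folds lean high, most of all where reads are few. There were 14 such sites on 4 of the 10 genes: 10 on Kmt2e, 2 on Dot1l, 1 on Setd1a and 1 on Nsd1. Among the 12292 protein-coding genes, 16.6% held at least 1 site. By region, 10 sites lay in coding sequence (CDS), 3 in a 3′UTR and 1 in an intron. The count depends on the rule: thresholds of 3 on both values left 4 sites, all on Kmt2e. A Mantel-Haenszel fit with replicate as a block gave 25 sites on 6 genes. The 16.6% of genes belongs to the main rule. No share of all genes is given for these other rules, so their counts have no background beside them. Of the significant peaks on the 10 genes, 20 of 43 in replicate 1 (46.5%) met a significant peak of replicate 2, beside 33% of all significant peaks. In the other direction it was 18 of 68 (26.5%), beside 18.5%.

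The coding share of the peaks stood close to the coding share of the clusters in replicate 1, and was lower in replicate 2 (47.1% against 58.5%). In both replicates the 3′UTR of these genes held more of the peaks than of the clusters, and introns fewer. CDS held 49% of their clusters in replicate 1 and 58.5% in replicate 2, beside 26.5% and 33.8% of all clusters, and introns held 40.8% and 28.5%, beside 57.6% and 46.7%. The 3′UTR held 7.77% and 10.2% of their clusters, and 25.5% and 43.9% of these were significant peaks, beside 19.4% and 34.5% of all 3′UTR clusters. Of the clusters in CDS, 6.34% and 9.82% were significant peaks, beside 5.28% and 7.96% of all CDS clusters. In replicate 1, 22 of 43 significant peaks lay in CDS, or 51.2% with a 95% Wilson interval of 36.8 to 65.4%, beside 28.4% of all significant peaks. In replicate 2, it was 32 of 68, or 47.1% with an interval of 35.7 to 58.8%, beside 20.4%. The 3′UTR held 14 of 43 (32.6%, interval 20.5 to 47.5%) and 25 of 68 (36.8%, interval 26.3 to 48.6%), beside 43.2% and 36.6% of all. Introns held 6 of 43 (14%, interval 6.56 to 27.3%) and 11 of 68 (16.2%, interval 9.28 to 26.7%), beside 22.8% and 38.1%. The coding share came mostly from Kmt2e, with 13 of the 22 CDS peaks in replicate 1 and 19 of the 32 in replicate 2. These intervals, and those of fold changes below, cover counting error only, and peaks of a gene are not replicates of it.

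Dot1l encodes the enzyme of the nucleosome core mark. It lies on the plus strand at chr10:80755206-80795461, and most of its significant peaks, 8 of 9 in replicate 1 and 5 of 7 in replicate 2, stood in the last exon. The rest were intronic and not shared: chr10:80771904-80771947 in replicate 1, with a log2(fold change) of 3.76 (0.86 to 9.23, 8 and 1 reads), and chr10:80763006-80763043 and chr10:80775814-80775860 in replicate 2, with 4.17 (1.01 to 9.73) and 2.33 (0.46 to 4.33). The site with the most IP reads, chr10:80793506-80793606, opened 1 base before exon 28, took in the stop codon and reached base 92 of the 3′UTR. In replicate 1 this site was split into 5 touching clusters with log2(fold change) from 3.55 to 4.64. In replicate 2 it was split into 3, from 2.15 to 2.99. Touching clusters can hold the same reads, so they count as 1 site.

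At this site, the cluster with the most IP reads had 119 IP reads against 13 SMInput reads in replicate 1. Its log2(fold change) was 3.96, with an exact 95% interval (Clopper-Pearson) of 3.13 to 4.91 and a −log10(P value) of 35.3. In replicate 2 the overlapping cluster with the most IP reads had 58 IP reads against 47 SMInput reads. Its log2(fold change) was 2.15 (interval 1.57 to 2.74). It was 71 bases wide, where that of replicate 1 was 19. Both replicates were enriched, and the intervals of these clusters did not overlap. The exact conditional test of the difference gave p = 0.000242, which was 0.140 after Benjamini-Hochberg adjustment over all 69199 pairs of overlapping clusters. The smallest p on the 10 genes was also at this site, 0.000118 (adjusted 0.0895), for the cluster of 4.07 in replicate 1 against the same 2.15. With pairs of fewer than 10 IP reads left out, that adjusted p became 0.0394, and with pairs sharing less than 0.5 of the shorter cluster left out it was 0.122. At the upstream end of the site the replicates were closer, 3.55 against 2.90 (exact conditional p = 0.276). At the other end they were 4.64 against 2.99 (exact conditional p = 0.0266, adjusted 1), a gap about as wide as 3.83 against 2.15 within the site. The smallest p values were those of the pairs with the cluster of 2.15, which was wider than each cluster it was paired with. The pair of 4.64 and 2.99 covered the same 7 bases in both replicates. Whether the replicates differ at this site beyond counting error thus depends on which pairs enter the adjustment. The effect of the unequal widths was not tested.

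The second Dot1l site lay further into the 3′UTR, at chr10:80794730-80794849, 1216 to 1335 bases past the stop codon. It had 34 IP and 9 SMInput reads in replicate 1, a log2(fold change) of 2.68 (1.59 to 3.93). In replicate 2 it had 24 and 18 reads, a log2(fold change) of 2.26 (1.32 to 3.23). The folds of the replicates were close here (exact conditional p = 0.639, adjusted 1). Whether the gap between replicates differed from that at the stop-codon site was not tested.

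Another stretch near the end of the 3′UTR missed the rule by little. The cluster chr10:80795293-80795351 passed in replicate 1 with 2.29, and an overlapping cluster of replicate 2, chr10:80795261-80795368, had 1.95 and a −log10(P value) of 6.91. The highest 3′UTR fold of replicate 2, 3.17 (1.72 to 4.82), lay at chr10:80794524-80794584 and met no cluster of replicate 1. Per length, with touching peaks joined, the Dot1l 3′UTR held 2.05 significant stretches per kilobase in replicate 1 and 1.54 in replicate 2, beside 0.289 and 0.442 over the 3′UTRs of the 12292 genes. In replicate 2 the 3′UTRs of Setd2 (3.06), Kmt2e (2.53) and Nsd1 (1.65) held more per kilobase than that of Dot1l. In replicate 1 they held fewer, with 0, 1.68 and 0.412.

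The coding sequence of Dot1l had lower folds than its 3′UTR. None of its 41 CDS clusters in replicate 1 or 32 in replicate 2 was a significant peak, where 5.28% and 7.96% of all CDS clusters were, so the count alone lies near the background. Their log2(fold change) ranged from −0.82 to 1.5 and from −1.06 to 1.43. The median was 0.45 in replicate 1 and 0.62 in replicate 2, where the 3′UTR clusters, with those of the stop-codon site counted once, had medians of 2.29 and 2.15. For most of them the reads were enough to tell: among CDS clusters with recovered reads, the upper end of the interval was below 2 in 22 of 31 and 21 of 26. Another 10 and 6 were listed at a −log10(P value) of 0, all with a log2(fold change) below 0. This order of regions was not particular to Dot1l. Median folds were also lower in CDS than in 3′UTR for Setd1a, Setd2, Kmt2a, Kmt2d, Kmt2e and Nsd1 in both replicates. For Setd2 they were 0.32 against 1.76 in replicate 1 and 0.60 against 2.21 in replicate 2. The order was reversed for Setd1b in replicate 1 and Kmt2b in replicate 2, and Kmt2c had no 3′UTR clusters.

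The stop-codon site was set against the CDS cluster of Dot1l with the most IP reads, a comparison chosen after the values were seen. The site had been picked for passing the threshold of 2 and no CDS cluster reached it, so the sign was fixed beforehand. The p values thus lend no support to a difference between CDS and 3′UTR. In replicate 1 the CDS cluster, chr10:80788684-80788766 in exon 24, had a log2(fold change) of 1.33, and the site was higher by 2.63 (exact interval 1.49 to 3.80, Fisher's exact p = 3.96e-07). In replicate 2 the CDS cluster, chr10:80791350-80791498 in exon 27, had 1.43, and the site was higher by 0.73 (exact interval −0.08 to 1.53, p = 0.0644). The intervals describe only the size of the difference for these clusters, which was smaller in replicate 2 than in replicate 1. In replicate 2 the CDS cluster was the highest of the CDS, and the cluster of the site was its lowest, beside 2.90 and 2.99.

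Reads also filled a stretch that the basic annotation calls intron 27. It held 7 clusters in replicate 1, with 41 to 67 IP reads each, and 5 in replicate 2, with 34 to 66. All of them lay inside an exon of other annotated Dot1l transcripts, chr10:80792143-80792773, in which RefSeq models end the reading frame at 80792738. Their log2(fold change) was 0.94 to 1.23 in replicate 1 and 1.05 to 1.21 in replicate 2, and none was a significant peak. On a transcript that uses this exon, the site called here the stop-codon site would lie in the 3′UTR, past another stop codon. The share of Dot1l mRNA of each form was not measured.

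**Figure D2:**
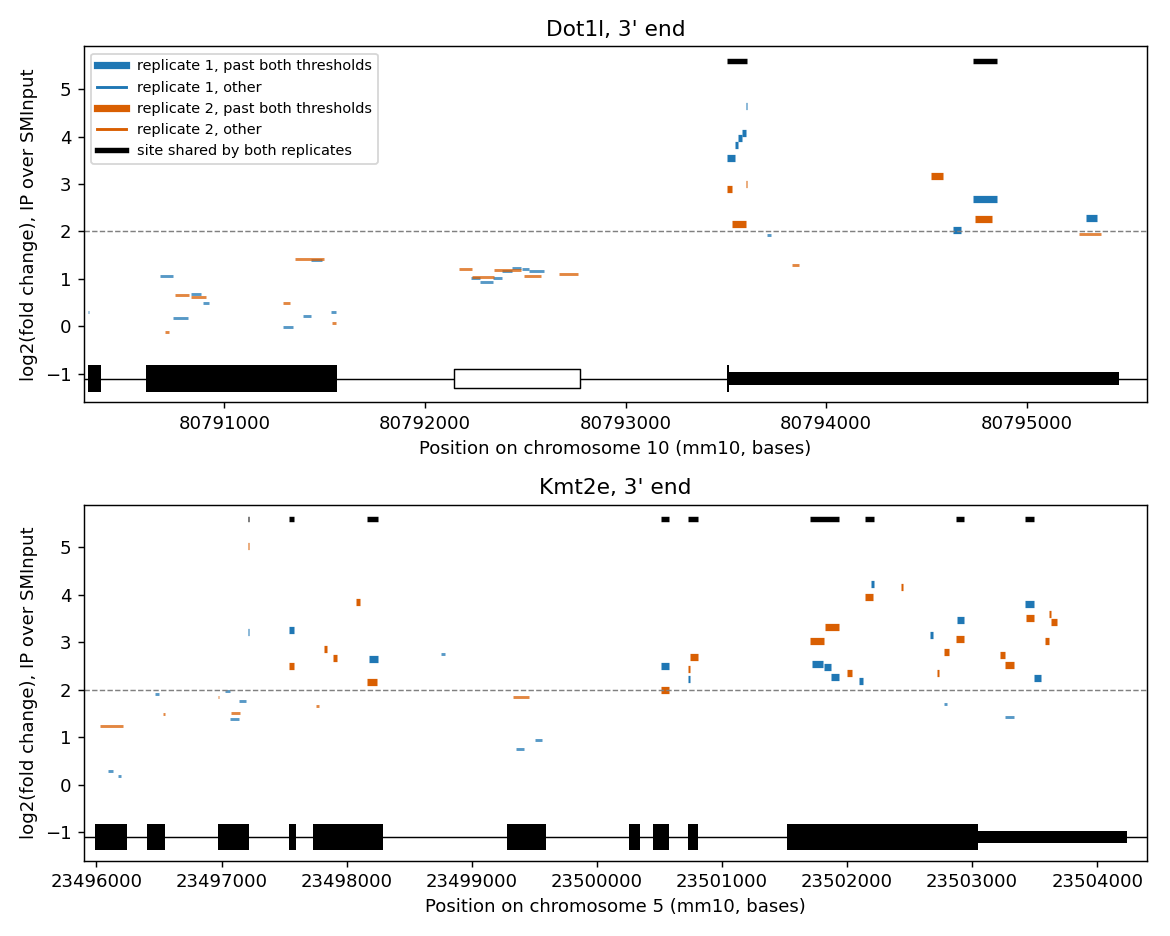
Clusters at the 3′ ends of Dot1l and Kmt2e, with position on the chromosome (mm10, bases) on the horizontal axis and log2(fold change) of IP over SMInput on the vertical axis. Blue is replicate 1 and orange replicate 2, thick segments are significant peaks, black segments at the top are the shared sites, black boxes are exons (tall for CDS, low for 3′UTR) and the open box is the exon at chr10:80792143-80792773; in the stretch shown, Dot1l peaks begin at its last exon, while those of Kmt2e span CDS and 3′UTR.

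Sequence at the Dot1l site was rich in GGAC, the core of the usual m6A motif. The 101 bases of the site held 4 copies on the RNA strand. Among windows of 101 bases centred on significant peaks in 3′UTRs, 9 of 7155 in replicate 1 (0.126%) and 6 of 10434 in replicate 2 (0.0575%) held as many, windows on Dot1l included. A match is a description of the letters and not a measure of methylation. The 30 bases shown, from the RefSeq GRCm38 genome (plus strand, chr10:80793541-80793570), hold 2 of these copies in capitals.
Dot1l 3′UTR, stop-codon site: atgcaaGGACggtgtGGACcaagactgctg

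A reporter of the study carries this piece of the 3′UTR, so its mutated bases could be placed on the clusters. The reporter copy used here has 399 bases from 80793507, and its mutant form has 10 A-to-T changes. With the first reporter base as 1, A10T, A43T, A52T, A58T and A87T fall inside the stop-codon site. The first of these lies in clusters of 3.55 and 2.90 in replicates 1 and 2, and A87T lies in clusters of 4.07 and 2.15. The other 5 changes, from A130T to A399T, lie in no cluster of either replicate.

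Kmt2e, the chromatin reader of the family, held more sites than the other 9 genes together. It lies on the plus strand at chr5:23434441-23504235. Its significant peaks crowded into the last 8 of its 27 exons, a boundary drawn after the values were seen. From exon 20 on, 12 of 18 CDS clusters were significant in replicate 1 and 18 of 22 in replicate 2, with median log2(fold change) of 2.37 and 2.58. Before exon 20, it was 1 of 24 and 1 of 18, with medians of 0.55 and 1.21. Unlike Dot1l, Kmt2e thus carried its enrichment in the coding sequence as well as the 3′UTR.

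In its last exon, 7 of 8 CDS clusters of replicate 1 and 8 of 8 of replicate 2 were significant. The site with the most IP reads, chr5:23501704-23501940, was 237 bases wide and lay at −1343 to −1107 bases from the end of the stop codon. Its cluster with most IP reads had 45 IP and 13 SMInput reads in replicate 1 and a log2(fold change) of 2.55 (1.64 to 3.57). In replicate 2 the overlapping cluster had 43 and 19 reads, for 3.03 (2.22 to 3.89), and the cluster with most IP reads, beside it, had 50 and 18, for 3.32 (2.52 to 4.19). Replicates did not differ beyond counting error here, and the smallest exact conditional p among pairs of overlapping clusters at the site was 0.106.

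Other sites of this exon were as strong. The site chr5:23502143-23502220 had a log2(fold change) of 4.22 in replicate 1 (interval 2.20 to 7.35, 22 IP and 2 SMInput reads) and 3.95 in replicate 2 (2.73 to 5.38, 30 and 7 reads). The site chr5:23502875-23502934, at −172 to −113 bases from the end of the stop codon, had 3.46 (2.21 to 4.99) and 3.07 (2.05 to 4.18). In the 3′UTR, the site chr5:23503425-23503496 had 3.81 (2.32 to 5.76) and 3.52 (2.51 to 4.64). At these 3 sites the lower end of the interval was above 2 in both replicates, as it was for all 5 clusters of the Dot1l stop-codon site in replicate 1. In replicate 2 it was above 2 for the clusters of 2.90 (2.19 to 3.65) and 2.99 (2.18 to 3.86) of the Dot1l site and not for that of 2.15.

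Upstream of the last exon, peaks of Kmt2e often ended at exon borders. In exon 20, the site chr5:23497211-23497223 had 3.22 (1.03 to 6.44, 11 and 2 reads) and 5.02 (2.17 to 10.47, 9 reads and 1 read). The site chr5:23497537-23497582, with 3.26 (1.47 to 5.68) and 2.50 (1.0 to 4.11), began where exon 21 begins. The first site reached the end of exon 20, so on the spliced mRNA both are 1 continuous stretch and may hold the same spliced reads. The same held for chr5:23500510-23500577 at the end of exon 25, with 2.50 (1.13 to 4.10) and 2.00 (0.55 to 3.48), and chr5:23500727-23500809 at the start of exon 26, with 2.22 (0.47 to 4.33) and 2.7 (0.96 to 4.62). Joined on the mRNA, the 10 sites of Kmt2e were 8, and the 14 sites of all genes were 12. The site chr5:23498165-23498248 lay within exon 22, with 2.64 (1.29 to 4.23) and 2.17 (1.15 to 3.22).

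The last Kmt2e site was intronic and weak. At chr5:23442086-23442171, replicate 1 had 9 IP and 2 SMInput reads, a log2(fold change) of 2.93 (0.66 to 6.18). Replicate 2 had 8 and 7 reads, a log2(fold change) of 2.04 (0.38 to 3.74). After adjustment over all clusters of its table, the P value was 0.0620 in replicate 1 and 0.0473 in replicate 2.

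Per length, with touching peaks joined, the CDS of Kmt2e held 1.96 and 3.03 significant stretches per kilobase, beside 0.164 and 0.212 over the CDS of the 12292 genes. Its 3′UTR held 1.68 and 2.53 per kilobase, beside 0.289 and 0.442. Stretches of 3 Kmt2e sites, again from the RefSeq GRCm38 genome and the plus strand, show how the letters differ along the mRNA. Capitals mark GGAC, which 2 of the 10 sites hold, while the 3′UTR site is rich in T.
Kmt2e CDS, exon 22, chr5:23498204-23498233: agacgggcttgcctctggttttGGACGGAC
Kmt2e CDS, exon 27, chr5:23502189-23502210: aactgtgtttacatctGGACca
Kmt2e 3′UTR, chr5:23503446-23503475: tttttttatggtcagcagttatttgagtgc

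Setd1a and Nsd1 each held a single site, both in CDS and both weak. SETD1A is a catalytic subunit of COMPASS. Its site, chr7:127783690-127783751, reached the end of exon 5, with a log2(fold change) of 2.03 (0.42 to 3.88, 12 and 5 reads) in replicate 1 and 2.36 (1.30 to 3.46, 20 and 14 reads) in replicate 2. In replicate 2 a further peak, chr7:127783973-127783984, began in exon 6 with 2.66 (1.30 to 4.12). In replicate 1 the strongest peak, chr7:127785614-127785640 in exon 7, had 3.22 (1.03 to 6.44) and an adjusted P value of 0.0180, and it met no significant peak of replicate 2.

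NSD1 acts on histone H3 in gene bodies and between genes. Its site, chr13:55299763-55299932 in exon 18, had 2.03 (0.42 to 3.88, 12 and 5 reads) in replicate 1 and 2.43 (0.36 to 4.70, 6 and 4 reads) in replicate 2. At both sites the adjusted P value of replicate 1 over all clusters was 0.127, so neither was past 0.05 in both replicates. Apart from its site, Nsd1 had significant peaks in both replicates that did not overlap. In exon 5, the peak chr13:55247064-55247176 of replicate 1 had 3.41 (1.87 to 5.39), and the peak chr13:55246704-55246759 of replicate 2 had 3.72 (1.80 to 6.20). Clusters of replicate 2 at the first of these places, chr13:55247075-55247160 and chr13:55247161-55247272, had 1.35 and 1.26 and were not significant, and replicate 1 had no cluster at the other. In the 3′UTR, 2 of 7 clusters of replicate 1 and 8 of 12 of replicate 2 were significant, at different positions. The strongest by P value in replicate 2, chr13:55313824-55313949, had 35 IP and 21 SMInput reads and 2.59 (1.76 to 3.44). A cluster at the same place in replicate 1, chr13:55313853-55313934, had 1.45.

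For Setd1b, Setd2, Kmt2a, Kmt2c and Kmt2d, significant peaks were found in each replicate but none overlapped between them. Lack of overlap was also the usual outcome over all genes. Of the 12292 protein-coding genes, 16.6% held a site, and 33% and 18.5% of all significant peaks met one of the other replicate. With replicate as a block in a Mantel-Haenszel fit over overlapping clusters, which does not ask each replicate to pass, Setd2 and Kmt2a each gained a site, and Setd1b, Kmt2c and Kmt2d did not. SETD1B is the sister of SETD1A: its peak with the most IP reads was chr5:123148255-123148334 in the CDS in replicate 1, with 2.83 (1.39 to 4.60), and chr5:123166674-123166715 in the 3′UTR in replicate 2, with 2.11 (0.77 to 3.48). SETD2 marks the bodies of transcribed genes, and its peak with the most IP reads was intronic in replicate 1, chr9:110535826-110535923, with 2.03 (0.42 to 3.88). In replicate 2 it was chr9:110618218-110618301 in the 3′UTR, with 2.99 (1.34 to 4.86). All 3 Setd2 3′UTR clusters of replicate 1 were below 2, from 1.12 to 1.86.

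KMT2A, KMT2C and KMT2D are large enzymes of COMPASS-like complexes, and Kmt2a and Kmt2c had few reads per cluster. The median cluster of Kmt2a held 5 reads of the IP in replicate 1 and 4 in the other, and that of Kmt2c held 4 in both. For Kmt2a, the peaks with the most IP reads were chr9:44806642-44806684, with 3.08 (0.85 to 6.31), and chr9:44805259-44805309, with 2.21 (0.62 to 3.87), both in the 3′UTR. For Kmt2c they were chr5:25351099-25351273 in exon 23, with 2.25 (0.69 to 4.07), and chr5:25299889-25299959 in exon 43, with 2.00 (0.55 to 3.48). The interval of 119 of 123 Kmt2c clusters in replicate 1 and 68 of 76 in replicate 2 held a log2(fold change) of 2, so most of them cannot be placed above or below the threshold. The same held for 87 of 95 and 60 of 73 clusters of Kmt2e, so this is not particular to Kmt2c.

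Kmt2d had more reads, and its median cluster had 12 IP reads in replicate 1, against 9 in the other. Its peak with the most IP reads was chr15:98844458-98844484 in exon 40 in replicate 1, with 2.50 (0.54 to 5.0), and chr15:98863117-98863182 in exon 11 in replicate 2, with 2.50 (1.47 to 3.58). In 26 of 55 clusters with recovered reads in replicate 1 and 32 of 69 in replicate 2 the interval stayed below 2. Its 3′UTR clusters had medians of 0.74 and 1.08 and its CDS clusters 0.49 and 0.62, a smaller gap than in Dot1l that was not tested.

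Kmt2b, which encodes another COMPASS-like enzyme, needed for oocyte and embryonic promoters, was the gene of the 10 without a significant peak in either replicate. Of all clusters, 4.92% passed in replicate 1 and 13.2% in replicate 2. By its number of significant peaks Kmt2b ranked 5664 and 7947 among the 12292 protein-coding genes. All genes without a peak share that rank, so a count of 0 was not particular to Kmt2b. It had 43 clusters in replicate 1, with a median log2(fold change) of 0.24, and 38 in replicate 2, with a median of 0.51. Its highest −log10(P value) was 1.45 and 3.78. Depth was comparable with that of its relatives, with 4 to 29 IP reads per recovered cluster in replicate 1 and 4 to 23 in replicate 2. The interval lay below 2 in 12 of 27 and 17 of 30 of these clusters, and a further 16 and 8 were listed at a −log10(P value) of 0. For the remaining 15 and 13 clusters a 4-fold enrichment was within the counting error.

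The Dot1l stop-codon site was compared with the site of most IP reads on each other gene, within a replicate, by Fisher's exact test on IP and SMInput reads. In replicate 1 it was higher than the Kmt2e site by 1.40 on the log2 scale (exact interval 0.05 to 2.74, p = 0.0368). In replicate 2 the difference was −1.17 (exact interval −2.22 to −0.15, p = 0.0166). The sign was thus not the same in both replicates, and neither difference passed adjustment. Against Setd1a the difference was 1.93 (−0.16 to 3.81, Fisher's exact p = 0.0356) in replicate 1 and −0.21 (−1.47 to 1.02) in replicate 2. Against Nsd1 it was 1.93 (−0.16 to 3.81, Fisher's exact p = 0.0356) and −0.28 (−2.63 to 1.89). In replicate 2 these differences use the site's cluster with the most IP reads, at 2.15, while the median over its clusters was 2.90, above the sites of Setd1a (2.36) and Nsd1 (2.43) and below that of Kmt2e (3.32). After adjustment over the 6 comparisons, the smallest p was 0.0553, so by these data no order of enrichment between the sites of Dot1l and the other genes can be given.

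Between replicates, folds of overlapping clusters were compared pair by pair. There were 190 pairs of overlapping clusters with recovered reads, and in 0 of them did the difference pass an adjusted p of 0.05, where 77 of 69199 pairs (0.111%) passed in the whole series. Pearson's r of the log2(fold change) across the pairs, which share libraries and are not independent, was 0.90 for the 38 pairs of Dot1l and 0.74 for the 37 pairs of Kmt2e. Several of the Dot1l pairs are touching clusters of the stop-codon site, and r with that site counted once was not computed. For the other 8 genes it was lower, from −0.33 for the 7 pairs of Setd1b, 0.22 for the 11 of Kmt2a and 0.25 for the 23 of Nsd1 to 0.57 for the 12 of Setd2. Over all 69199 pairs it was 0.56.

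Motif letters were counted on the RNA strand around the peaks of these genes, a description of few windows. GGAC occurred in 7 of 14 windows of 101 bases around 3′UTR peaks in replicate 1 (50%) and in 6 of 25 in replicate 2 (24%), beside 25.2% and 23.5% for all significant 3′UTR peaks. Several of the 7 windows cover the same Dot1l site. In CDS, GGAC was in 5 of 22 (22.7%) and 14 of 32 windows (43.8%), beside 29.9% and 29.6%. GAACA, another motif that was counted, was in 1 of 14 and 1 of 25 windows of 3′UTR peaks, beside 8.40% and 7.81% of all. In CDS it was in 1 of 22 and 2 of 32 windows, beside 10.6% and 10.8%. AAACC was in 0 of 14 and 0 of 25, beside 8.78% and 8.64%, and in CDS in 5 of 22 and 3 of 32, beside 9.70% and 8.52%. The difference between these shares and those of all peaks was not tested.

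Taken gene by gene, each partner of these enzymes held fewer sites than Kmt2e, the gene of the 10 with the most. Ncoa6 and Mllt10, with 3 sites each, held more than Dot1l with 2. Of 13 COMPASS subunits, 4 had a site in both replicates: Ncoa6, Wdr82, Dpy30 and Cxxc1. Ncoa6, a coactivator of the KMT2C and KMT2D complexes, had 3 sites, the strongest at chr2:155437982-155438141 in the CDS with 3.26 (2.23 to 4.47) and 2.85 (1.94 to 3.81). Wdr82, a subunit of the SETD1 complexes, had a 3′UTR site with 2.64 (0.72 to 5.12) and 2.66 (0.68 to 4.88). Dpy30, a core subunit, had one with 2.50 (0.54 to 5.0) and 4.55 (2.41 to 7.74). Cxxc1, which reads CpG islands for SETD1, had the most reads of these, 58 IP and 20 SMInput reads in replicate 1 and 85 and 56 in replicate 2, with 2.3 (1.54 to 3.11) and 2.45 (1.95 to 2.96).

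Of 7 partners of DOT1L, Mllt10 was the one with sites in both replicates. It encodes AF10, which binds DOT1L and is needed for its full activity. Of the Mllt10 clusters, 16 of 245 (6.53%) and 18 of 182 (9.89%) were significant peaks, beside 4.92% and 13.2% of all clusters. They gave 3 sites. The strongest lay in the 3′UTR at chr2:18211908-18212043, with 2.93 (1.80 to 4.25) and 2.66 (1.72 to 3.64). Of 19 other histone lysine methyltransferases, 3 had a site, all in the 3′UTR. These were Nsd2 with 2.76 (0.87 to 5.23) and 2.43 (0.36 to 4.70), Setd5 with 2.41 (1.14 to 3.88) and 2.77 (1.90 to 3.68), and Ash1l with 2.01 (0.75 to 3.41) and 2.55 (1.68 to 3.46). Counts of 4 of 13, 1 of 7 and 3 of 19 genes stand beside the 16.6% of protein-coding genes with a site, and with lists this short they give no ground to set any of them apart.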

How the data were processed

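IGF2BP3 eCLIP-seq was measured in 2 IP and 2 SMInput libraries of mouse testis. The authors trimmed reads (cutadapt), removed ribosomal RNA reads (Bowtie2) and mapped the rest to mm10 (STAR). They then collapsed PCR duplicates by molecular identifiers and called clusters with Clipper, by the paper's account from IP and SMInput alignments. The deposited significance of each cluster is the −log10 of the authors' P value for IP against SMInput reads, with 400 as the largest value; clusters listed at 0 had log2 folds of at most 0.18 in replicate 1 and 0.11 in replicate 2, though not every cluster with such a fold was listed at 0. The deposited log2 values are the authors' fold of IP over SMInput, scaled to library size. The IP of a replicate was set against the SMInput of the same number alone, as the authors did.

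Library totals and reads per cluster were worked out as the whole numbers that return both deposited values, with Fisher's exact test below 5 reads and a Yates chi-square otherwise. A single solution was found for 301223 of 301288 clusters between 0 and 400 in replicate 1 and 199765 of 199766 in replicate 2; the rest had several. The step and the test between replicates were also run on simulated data, but the outcome is not given here and no result rests on it. Regions came from basic GENCODE M21 transcripts, with 3′UTR before CDS. No cluster ran past a chromosome end, and the start codon read from the genome was ATG for 10 of 10 genes. P values were adjusted by the Benjamini-Hochberg method over whole tables, except the 6 comparisons between sites. The tests of the Dot1l stop-codon site against a CDS cluster were not adjusted. All tests are two-sided. Python 3.11.15, scipy 1.17.1, pandas 2.3.3 and pysam 0.24.0 were used.

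The 10 genes and the lists of partners, other methyltransferases and markers were chosen with earlier results of these data known. For each gene, each site significant in both replicates was named, or else, for each replicate, its significant peak richest in IP reads; of the lists, genes with such a site were named. Dot1l, Setd1a and Nsd1 peaks or clusters beyond this rule, and the part of Kmt2e from exon 20, were picked after their values were seen. Alternatives covered thresholds, adjustment, read minimum, gene assignment, region order, overlap, the replicate block and each replicate alone.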

Additional observations from a re-analysis of the deposited data

How the results depend on the processing

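Of 43 alternative values, 27 kept to the reported one within the set margin. With thresholds of 3 on both values, significant peaks on the 10 genes fell to 14 in replicate 1 and 15 in replicate 2, sites to 4 and genes with a site to 1, Kmt2e. With a threshold of 1 on log2(fold change) there were 72 and 112 peaks. In replicate 2, a minimum of 10 IP reads left 40 peaks and assignment by the nearest transcription start site left 45. Without 1 of the replicates, 37 to 61 joined peaks remained in place of 14 sites, on 9 to 9 genes, and 1 to 3 of the comparisons of Dot1l with other genes passed an adjusted p of 0.05, since fewer were tested. With at least 10 IP reads, 1 pair of clusters, at the Dot1l stop-codon site, differed between replicates.

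With replicate as a block (Mantel-Haenszel over paired clusters), 25 sites on 6 genes passed, with Setd2 and Kmt2a beside Dot1l, Setd1a, Kmt2e and Nsd1, and the Dot1l stop-codon site had a log2 odds ratio of 3.0. The share of all genes with a site under this rule, or under thresholds of 3, is not given. IP and SMInput of the same number were taken as a pair, and the values in the text already compare them within it. Joining sites that touch on the spliced mRNA, an alternative chosen after seeing the data, left 12 sites. Joining touching peaks in the counts per kilobase and counting the Dot1l stop-codon site once in the 3′UTR median were chosen after seeing the data as well; without these the Dot1l 3′UTR held 4.11 and 2.57 peaks per kilobase, with medians of 3.55 and 2.26. Shares of peaks in the 3′UTR kept within their intervals. Depth limits the calls: 5 of 43 (11.6%) and 28 of 68 peaks (41.2%) rest on fewer than 10 IP reads, beside 29.1% and 62% of all significant peaks, and with 2 replicates no spread between animals can be given.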
